A study of Mus musculus with 10 samples.

Results

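Chromatin that opened or closed between day 3 and day 9 of reprogramming was read from 4 ATAC-seq peak lists, 2 for DAY3 and 2 for DAY9. ATAC-seq uses a transposase that cuts accessible DNA and inserts sequencing adapters there, and a peak is a stretch where cuts pile up above their local background. Overlapping peaks of the 4 lists (1 bp or more) were merged into 101824 regions. A region was called gained if both DAY9 lists and neither DAY3 list had a peak in it, and lost in the opposite case. This gave 28135 gained and 4812 lost regions, out of the 101824 merged ones and of 208851 regions when all 10 lists of the series are merged.

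All 4 libraries came from mouse embryonic fibroblasts of C57BL/6 x 129 strain with genotype OKSM Col1a1/M2rtTA ROSA26: Oct4, Klf4, Sox2 and Myc, the factors that reprogram the cells, stand as 1 polycistronic cassette at Col1a1, and the activator that switches it on with doxycycline stands at Rosa26. At both time points the medium for embryonic stem cells held 1 ug/ml doxycycline and 50 ug/ml ascorbic acid, and each library was made from 50000 cells. DAY3 cells were unsorted and DAY9 cells were sorted for the surface marker SSEA1, so the time point and the sort cannot be told apart. In these bulk libraries, fewer cells with an open site and less opening per cell cannot be told apart either. Uninduced fibroblasts (MEF), SSEA1-sorted DAY6 cells and unsorted V6.5 embryonic stem cells (ESC) are used below only to place the regions, with 2 libraries each.

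When fibroblasts are driven to pluripotency, they shed the mesenchymal programme, pass through a mesenchymal-to-epithelial transition and only later switch on the network of pluripotency genes. Enhancers, which lie away from gene starts, change accessibility more between cell types than promoters, many of which are open in all cells. SSEA1, a carbohydrate made by fucosyltransferases, appears on cells that have entered this path.

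The promoters below lie in gained or lost regions. They are examples only and not typical of either set. A start was within 1 kb of only 4.57% of gained and 2.88% of lost regions. Each sequence below runs from 250 bases before to 50 bases after a gene start (RefSeq, GRCm38.p6, the strand of the gene). Capitals mark matches, on either strand, to any of 12 short words searched for known factors. The first 3 windows held a peak in both DAY9 lists and in neither DAY3 list: Nanog, a core pluripotency factor, at chr6:122707239-122707538 on the plus strand; Tdgf1, a co-receptor for Nodal that marks pluripotent cells, at chr9:110946109-110946408 on the minus strand; and Cldn7, a tight-junction claudin of epithelia, at chr11:69965171-69965470 on the plus strand. The last 2 held a peak in both DAY3 lists and in neither DAY9 list: Twist2, a mesenchymal repressor, at chr1:91801211-91801510 on the plus strand, and Runx2, a transcription factor of bone and connective tissue, at chr17:44814578-44814877 on the minus strand. The capitals in Nanog and Tdgf1 are the KLF word GGGNGTGG, 2 matches each. Those in Cldn7 are the ETS word CCGGAAGT, those in Twist2 the CEBP word TTGCNNAA, and those in Runx2 the RUNX word TGTGGTTT followed by the CEBP word.
Nanog: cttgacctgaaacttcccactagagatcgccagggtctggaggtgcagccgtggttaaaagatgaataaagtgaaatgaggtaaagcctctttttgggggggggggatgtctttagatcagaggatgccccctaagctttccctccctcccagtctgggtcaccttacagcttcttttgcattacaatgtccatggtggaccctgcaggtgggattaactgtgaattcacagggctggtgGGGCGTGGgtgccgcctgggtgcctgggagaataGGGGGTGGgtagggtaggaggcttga
Tdgf1: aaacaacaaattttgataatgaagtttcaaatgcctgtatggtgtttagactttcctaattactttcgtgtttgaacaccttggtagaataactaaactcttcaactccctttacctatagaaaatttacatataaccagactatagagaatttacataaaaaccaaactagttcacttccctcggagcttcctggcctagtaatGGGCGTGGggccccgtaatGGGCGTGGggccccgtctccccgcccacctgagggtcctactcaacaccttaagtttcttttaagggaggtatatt
Cldn7: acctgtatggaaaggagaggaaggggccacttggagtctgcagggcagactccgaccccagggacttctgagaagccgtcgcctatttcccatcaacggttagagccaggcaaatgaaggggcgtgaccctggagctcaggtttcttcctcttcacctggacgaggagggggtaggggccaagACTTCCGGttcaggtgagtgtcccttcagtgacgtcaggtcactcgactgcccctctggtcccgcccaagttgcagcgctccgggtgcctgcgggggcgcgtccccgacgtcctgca
Twist2: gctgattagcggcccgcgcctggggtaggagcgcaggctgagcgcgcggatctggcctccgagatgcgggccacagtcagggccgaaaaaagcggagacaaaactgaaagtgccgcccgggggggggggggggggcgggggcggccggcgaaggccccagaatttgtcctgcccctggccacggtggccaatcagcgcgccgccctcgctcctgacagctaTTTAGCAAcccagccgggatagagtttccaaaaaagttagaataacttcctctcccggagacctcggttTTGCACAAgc
Runx2: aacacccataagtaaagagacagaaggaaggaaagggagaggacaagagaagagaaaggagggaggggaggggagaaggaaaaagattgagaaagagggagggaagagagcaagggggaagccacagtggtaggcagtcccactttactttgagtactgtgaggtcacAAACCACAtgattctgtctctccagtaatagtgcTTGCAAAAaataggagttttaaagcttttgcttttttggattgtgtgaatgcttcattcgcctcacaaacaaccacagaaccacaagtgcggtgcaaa

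The DAY3 lists held 45766 and 45497 peaks and the DAY9 lists 77787 and 78308, so the DAY9 lists were 1.71 times as long. Read totals are not given in the sources used here. The commonest expected pileup in a list, a stand-in for depth, was 5.30 and 5.27 reads at DAY3 and 7.33 and 7.37 at DAY9, a ratio of 1.39. At 24175 regions with exactly 1 peak in each of the 4 lists, the median peak pileup was 43.5 reads at DAY3 and 94 at DAY9, and the median ratio of DAY9 to DAY3 was 2.13 (10th to 90th percentile 1.01 to 3.76). Shared peaks thus stood higher at DAY9 by more than the background did. The 2 libraries of a day differed by little more than counting noise: over peaks of 100 to 200 reads, the mean squared difference of their pileups was 1.33 times (DAY3) and 1.42 times (DAY9) what counting alone gives, against 13.6 to 14.2 times for a DAY3 with a DAY9 library. The labels do not say whether the libraries of a day came from separate cultures, and each pair was counted as 1 sample. Even as 2 against 2 libraries the smallest two-sided exact p-value is 1 in 3, so the comparison has no p-value and every count is a description of these lists.

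Gained regions made up 27.6% of the merged regions and lost regions 4.73%. The gained regions were 43.3% of the 64964 regions with a peak in both DAY9 lists, and the lost ones 13.5% of the 35639 with a peak in both DAY3 lists. A peak in all 4 lists was found in 28869 regions. Of the regions that were gained or lost, 85.4% were gained. This excess did not hold once the peak heights of the days were matched. With each list shortened to its 45497 strongest peaks, 11190 regions were gained and 8775 lost. With DAY9 peaks scaled down to the DAY3 background, 20841 were gained and 6008 lost. With DAY9 peaks scaled down to the DAY3 height of shared peaks (matched peak height below), 8841 were gained and 10090 lost, which turns the excess to losses. That scaling assumes that shared peaks are equally high on both days. Of the 4812 lost regions all were still called lost under it, whereas 8839 of the 28135 gained regions (31.4%) were still called gained. At equal list length 4786 lost (99.5%) and 11162 gained regions (39.7%) were still called. Both treatments remove peaks almost only from DAY9, so by construction they keep lost calls and thin gained ones.

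**Figure D1:**
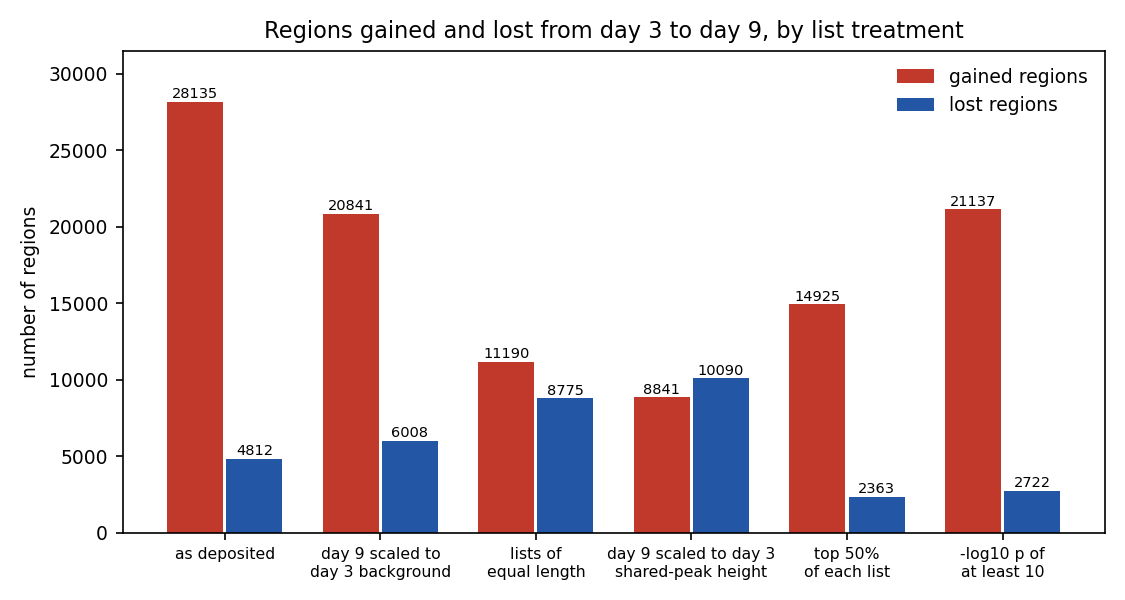
Number of gained (red) and lost (blue) regions with the lists as deposited and under 5 treatments of the lists. Gained regions outnumbered lost ones 28135 to 4812 as deposited and stood at 8841 to 10090 when DAY9 peaks were scaled to the DAY3 height of shared peaks.

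Neither set consisted of the strongest peaks. The authors' −log10 p-value at gained regions had a median of 12.5 and 12.8 in the DAY9 lists, and at lost regions 9.98 and 9.40 in the DAY3 lists. At regions with a peak in all 4 lists the medians were 23.3 and 23.6 at DAY3 and 62.4 and 62.1 at DAY9. The lowest deposited value was about 5, and 4317 gained (15.3%) and 878 lost regions (18.2%) had a value under 6 in the weaker of their 2 lists. Just outside the rule stood 9780 and 10319 regions with a peak in only 1 of the 4 lists, a DAY9 list, with medians of 6.10 and 6.18. For the DAY3 lists these were 4005 and 3853 regions, with medians of 6.07 and 6.12.

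Gained and lost regions both lay away from gene starts. A start of a protein-coding gene was within 1 kb of 4.57% of gained regions, 2.88% of lost regions, 34.3% of those listed in all 4 libraries and 12.9% of all merged regions. Moving every start by 10 kb to one side or the other gave 2.84% and 2.91% for gained, 1.77% and 2.14% for lost and 3.73% and 3.75% for the regions with all 4 peaks. The gained and lost regions were thus close to that floor, and the shared ones far above it. The median distance to a start was 40.3 kb for gained, 57.7 kb for lost and 14.2 kb for shared regions, and 29.1%, 36.7% and 19.5% lay more than 100 kb away. Of gained regions 50.5% overlapped a protein-coding gene body, of lost 53.8% and of shared 70.6%. Gained regions were nearer to starts than lost ones with the lists as deposited. At matched peak height 5.26% of gained and 5.30% of lost regions were within 1 kb, so this share no longer set them apart. The median distances, 40.7 kb for gained and 48.3 kb for lost regions, still did. The median width was 511 bp for gained and 536 bp for lost regions, against 877 bp for shared ones.

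**Figure D2:**
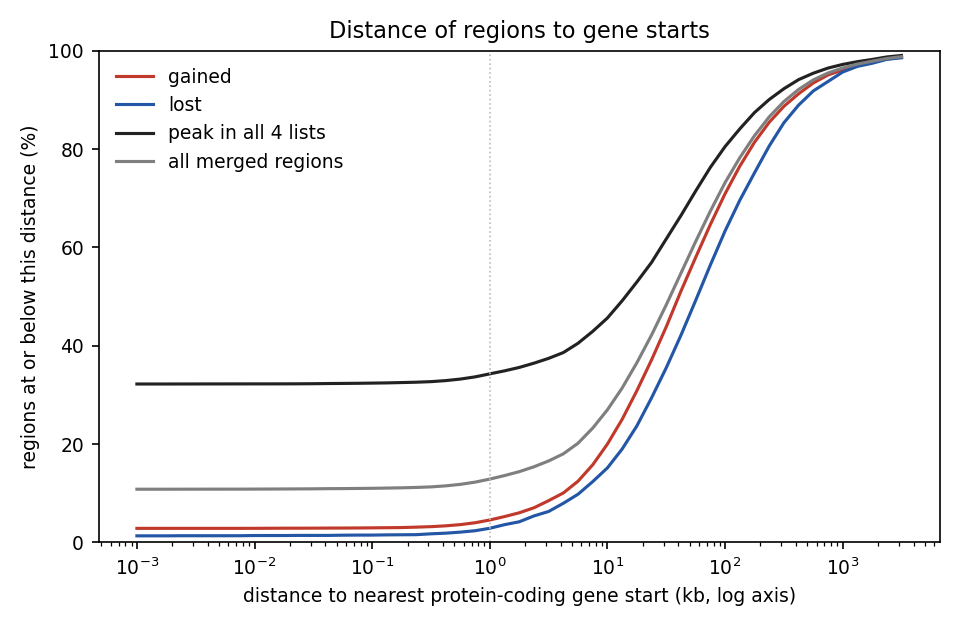
Cumulative share of regions (y axis, %) within a given distance of the nearest protein-coding gene start (x axis, kb, log scale) for gained, lost, shared and all merged regions; the dotted line marks 1 kb. At 1 kb the curves stand at 4.57% (gained), 2.88% (lost), 12.9% (all merged) and 34.3% (peak in all 4 lists).

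The lists of MEF, DAY6 and ESC were not used to choose the regions, and they separated the gained from the lost set. Gained regions held a peak in 15.7% and 7.84% of cases in the MEF lists, in 50.9% and 46.0% in the DAY6 lists and in 50.1% and 50.0% in the ESC lists. Lost regions held one in 50.6% and 45.2% in MEF, in 39.6% and 29.4% in DAY6 and in 8.40% and 7.75% in ESC. The 2 libraries of each stage were on the same side of this contrast: every MEF value was higher for lost regions and every DAY6 and ESC value higher for gained regions. Of all merged regions 36.5% and 29.6% had a MEF peak, 56.8% and 52.2% a DAY6 peak and 48.0% and 48.1% an ESC peak. The lost set thus stood above the average in MEF and below it in DAY6 and ESC. The gained set, with the lists as deposited, stood below the average in MEF and DAY6 and slightly above it in ESC. Its place in DAY6 depended on the list treatment. Both DAY6 lists had a peak in 33.0% of gained regions as deposited and in 59.6% at matched peak height. For all merged regions as deposited the share was 44.1%, and it was not computed at matched peak height. Regions with a peak in all 4 lists had a peak in both DAY6 lists in 92.6% of cases.

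**Figure D3:**
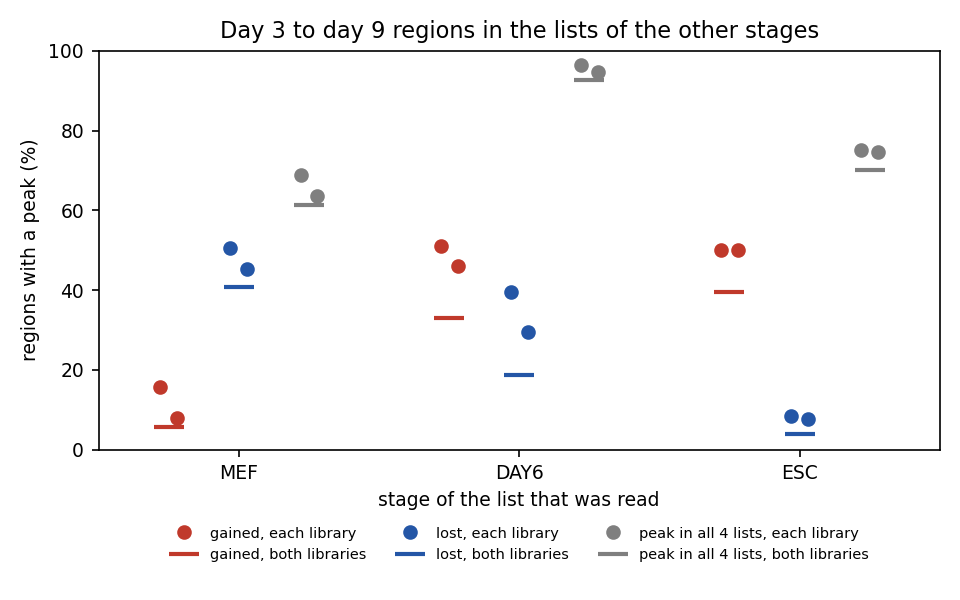
Share of gained, lost and shared regions with a peak in the lists of MEF, DAY6 and ESC (dots: each of the 2 libraries; dashes: both libraries). Lost regions had a peak in both ESC libraries in 3.97% of cases and gained regions in 39.6%.

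Members of the gained set differed in the other stages where they were listed. The commonest expected pileup was 3.45 and 2.33 reads in the DAY6 lists, against 7.33 and 7.37 at DAY9. Opening after DAY6 thus cannot be told from a DAY6 peak below the threshold. Of the 28135 gained regions, 4792 had a peak in both DAY6 and both ESC lists, 2700 in both DAY6 but neither ESC list, and 2951 in neither DAY6 but both ESC lists. Another 4630 had no peak in any of the 6 other lists, and these lay in the weaker portion of the DAY9 lists, at a median rank of 69.1% from the top. In 1618 gained regions (5.75%) both MEF lists had a peak, so the site was listed before induction, not listed at DAY3 and listed again at DAY9. Strong gained regions were more often already listed at DAY6: in the strongest 25% of the set 77.3% and 73.5% had a DAY6 peak, in the weakest 25% 31.1% and 25.6%. The ESC shares ran from 61.4% and 59.2% to 40.2% and 41.1% between the same ends of the set. Of the 4812 lost regions, 1956 (40.6%) had a peak in both MEF lists and 2161 (44.9%) in neither. The latter were listed at DAY3 but not in the starting fibroblasts. A group of 1044 lost sites was without a listed peak in MEF, DAY6 and ESC alike, so these were listed at DAY3 alone. They lay in the weaker portion of the DAY3 lists, at a median rank of 70.6% from the top. The commonest expected pileup at DAY3 was 5.30 and 5.27 reads. Closing by DAY6 thus cannot be told from a DAY6 peak below the threshold either. In the strongest 25% of the lost set 60.3% and 54.1% had a MEF peak, in the weakest 42.6% and 38.2%.

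The strongest gained regions were distal sites that DAY6 and ESC shared. Regions were ordered by the worse of their 2 ranks by −log10 p-value in the DAY9 lists, and the first was chr4:22144564-22145468, 143 kb from Faxc, with a fold over background of 18.6 and 19.3 in the DAY9 lists, 12.2 and 15.6 at DAY6 and 20.3 and 18.1 in ESC. The second, chr4:5515250-5516040, lay 128 kb from Fam110b, with folds of 20.2 and 20.9 at DAY9 and 21.8 and 16.8 in ESC. Of the first 10 gained regions, all had a peak in both DAY6 and both ESC lists and none a MEF peak. Places 3, 4 and 8 lay within 10 kb of Tdpoz7, Tdpoz5 and Spopfm2 on chromosome 3, members of a family of near-identical BTB-domain genes, so reads there may have been placed among copies. Place 5 lay inside Gucy1a2, a subunit of soluble guanylate cyclase, and place 6 inside Rbm20, a splicing regulator of muscle. The strongest lost regions were ordered in the same way by their DAY3 ranks. The first, chr12:101807107-101808013, lay inside Fbln5, the elastic-fibre protein fibulin-5, with folds of 11.1 and 10.9 at DAY3, 7.86 and 5.71 at DAY6 and no peak in MEF or ESC. The second, chr13:90233654-90234686, 119 kb from Tmem167, had 13.5 and 12.5 at DAY3 and 10.6 and 7.08 in MEF. The region at place 4 was nearest to Epha3, an ephrin receptor, with MEF folds of 11.1 and 13.1. That at place 8 lay inside Tmem182, with MEF folds of 18.8 and 12.9. The 18.8 and the 13.1 were the highest of the 10 in the first and the second MEF list. None of these 10 had an ESC peak, and 8 had one in both MEF lists.

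Long genes collected the most regions. A gained region lay in the body or 10 kb flanks of 10549 of 21883 protein-coding genes (48.2%), and a lost one in or near 2569 (11.7%). Of these 2569 genes, 1787 (69.6%) had a gained region as well. Genes with a gained region had a median length of 29.2 kb and those without one 10.3 kb. Auts2, a neurodevelopmental gene of 1106 kb, had 25 gained regions and 2 lost ones. Msi2, an RNA-binding protein of stem cells, had 21 gained regions in 379 kb, the densest of the first 10. Also among the first 10 were Macrod2, Arhgap26, Etl4, Ptprn2, Magi2 and the overlapping protocadherin entries Gm37013 and Gm38666, with 19 to 24. Among genes with lost regions, Fmnl2, a formin that shapes actin at the cell edge, stood first with 10 lost and 3 gained. It held 28 and 22 peaks in MEF, 21 and 20 at DAY3, and 14 and 13 at DAY9. Lpp, a zyxin-family protein of focal adhesions, and Pde4d, a cAMP phosphodiesterase, had 7 lost regions each, beside 6 and 15 gained. Gli2, a transcription factor of the Hedgehog pathway, had 6 lost and 0 gained, with 11 and 14 peaks at DAY3 and 4 and 5 at DAY9. Ebf1, a factor of B cells and mesenchyme, had 6 lost and 1 gained. Cacna2d3, Nav2, Sox5, Trpm3 and Wwox also had 6 lost regions, with 2 to 18 gained.

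At the level of single genes, a gained region lay in the body or 10 kb flanks of most members of the pluripotency list. Of its 40 members 35 had a gained and 0 a lost region there, against 48.2% and 11.7% of all genes. The 0 depends on that assignment. When each region was given to the nearest gene start instead, 25 of the 26 members with a start in the table had a gained and 7 a lost region (26.9%, against 16.3% of all genes). Of all genes 53.2% had a gained region under that assignment. With lists of equal length and at matched peak height 1 member had a lost region. At Pou5f1, which encodes Oct4, the gained region chr17:35503702-35504374 lay 1.66 kb before the start, with folds of 9.02 and 8.80 at DAY9, 6.89 and 8.09 at DAY6 and 7.69 and 4.91 in ESC. The start of Pou5f1 itself had a peak in all 10 lists. The cassette holds copies of the coding sequence of Pou5f1, Sox2, Klf4 and Myc, so peaks inside these genes may stem from the cassette as well. Esrrb, an orphan nuclear receptor of naive pluripotency, had 6 gained regions inside the gene, with DAY9 folds from 2.25 to 9.40. Nr5a2, a nuclear receptor that can stand in for Oct4 in reprogramming, had 9, and only 1 of these, chr1:136878749-136879278, had an ESC peak, in 1 library. Nr5a2 and its flanks held 14 and 12 peaks in the ESC lists and 12 and 13 at DAY9, so most ESC peaks lay at other sites.

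The starts of Nanog, Tdgf1, Nr0b1, Lin28b and Otx2 gained a peak. At matched peak height only the Tdgf1 start of these was still gained, and at equal list length only those of Nanog and Tdgf1. The Nanog region chr6:122707274-122707674 covered the promoter printed above and was weak, with folds of 2.25 and 2.42 at DAY9 and 5.32 and 3.14 in ESC. It had no peak at DAY6. The Tdgf1 region chr9:110945987-110947909 was among the higher ones, with 9.46 and 8.53 at DAY9, 6.23 and 4.72 at DAY6 and 4.90 and 5.18 in ESC. Nr0b1, a partner of Nanog and Oct4, had a second region at chrX:86193234-86194203 with 8.58 and 9.44. Klf4, Dppa2, Dppa4 and Jarid2 were among the members without a gained region. Klf4 and Jarid2 had peaks at their starts in all 4 lists. Dppa2 and Dppa4, neighbours expressed in early embryos and germ cells, had 0 peaks in the DAY3, DAY6 and DAY9 lists. Dppa2 had 2 and 1 peaks in the MEF and 8 and 6 in the ESC lists, and Dppa4 1 and 1 in the MEF and 5 and 8 in the ESC lists. Of the 78 gained regions of the list 45 had a peak in both ESC lists, 21 in both DAY6 lists and 1 in both MEF lists. At matched peak height 27 of the 78 were still gained, at 19 of 40 members, against 22.1% of all genes. The Nanog region was not among them, and the Pou5f1 and Tdgf1 regions were.

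Epithelial genes also had gained regions almost throughout. Of the 28 members of the epithelial list 25 had a gained region and 2 a lost one, against 48.2% and 11.7% of all genes. Cdh1, which encodes E-cadherin, had 3, of which chr8:106603046-106604288, over one end of the gene, had folds of 11.6 and 10.6 at DAY9, 6.98 and 7.90 at DAY6 and 8.09 and 6.53 in ESC. Grhl2, a regulator of epithelial junction genes, had 6 and Grhl3 4. Esrp1, an epithelial splicing regulator, had 4, of which chr4:11386402-11387594 had 8.97 and 8.54 at DAY9. At Cldn7 the region over the printed promoter, chr11:69965093-69965724, had 12.6 and 13.4 at DAY9, 3.82 and 5.56 at DAY6 and 7.31 and 3.25 in ESC. The DAY9 folds were the highest listed there, but the region was chosen for its DAY9 peaks and folds were not scaled between libraries. The starts of Cldn4, Cldn6, Crb3, Ocln, Rab25 and Grhl3 also gained a peak. The Cldn6 and Rab25 starts were no longer gained at matched peak height, and the Rab25 start was not at equal list length either. Cldn3 had 1 peak in the gene or its flanks in each of the 10 lists. Krt7 had 0 peaks there in both DAY3 lists, and 0 and 1 in the DAY9 lists. Of the 69 gained regions 38 were still gained at matched peak height, at 20 of 28 members, against 22.1% of all genes. Lost regions then lay near 8 members, against 22.9% of all genes.

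**Figure D4:**
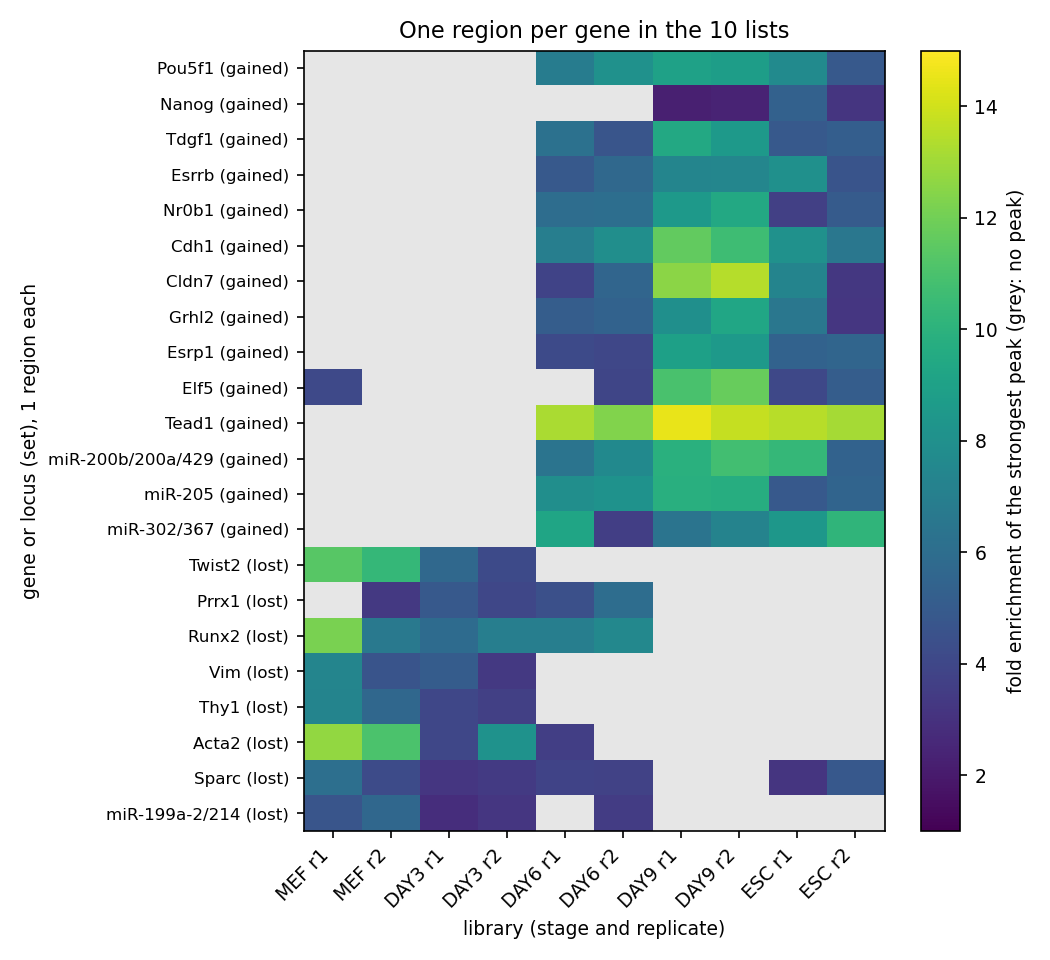
Authors' fold enrichment (colour) of the strongest peak in 1 region per gene or microRNA locus (rows) in the 10 libraries (columns), grey where a list had no peak; the region shown is the gained or lost one with the highest fold in the weaker of the 2 DAY9 or DAY3 lists. Gained rows are grey at DAY3 and coloured at DAY9, up to 14.5 and 13.8 at Tead1, and lost rows are the reverse.

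The mesenchymal-transition list stood on the other side. Of 20 members 10 had a lost region, against 11.7% of all genes, and 7 a gained one, against 48.2%. Twist2 lost 2 regions: the promoter region chr1:91801174-91802095, with folds of 4.99 and 4.10 at DAY3 and 6.76 and 4.86 in MEF, and chr1:91816676-91817196 in the gene, with 5.71 and 4.15 at DAY3 and 11.4 and 10.3 in MEF. Both had no DAY6 peak, and the promoter region had a peak in 1 ESC list. Prrx1, a homeobox factor of limb mesenchyme, lost 3 regions including its start, with 2.71 and 2.46 at DAY3, and gained 2 in or beside the gene. With peaks counted within 2.5 kb, its start was no longer lost. Vim, Acta2 and Tagln, which encode vimentin, smooth muscle actin and transgelin, lost 1 each. The starts of Vim and Acta2 still had a peak in all 4 lists. All 4 lists also had a peak within 1 kb of a Tagln gene end. At Acta2 the folds were 12.7 and 11.0 in MEF and 3.97 and 8.13 at DAY3, and the MEF values were above both DAY3 values. At Vim they were 7.35 and 4.65 in MEF and 5.06 and 3.32 at DAY3, and the ranges overlapped. Cdh11 and Vcam1 lost 2 and Mmp2 1. Zeb2 lost 1 and gained 2, and Cdh2, N-cadherin, lost 1 and gained 5. Snai1 gained 3 regions, Pdgfrb 4 and Fn1 1, and Postn gained as well, and none of these had a lost region. Twist1, Snai2, Zeb1 and Pdgfra neither gained nor lost a region. At matched peak height 12 of 20 members had a lost region and 3 a gained one, against 22.9% and 22.1% of all genes. Twist1 was then among the genes with a lost start.

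Fibroblast factors and matrix genes had regions of both sets. Of 35 fibroblast factors 24 (68.6%) had a gained and 12 (34.3%) a lost region, against 48.2% and 11.7% of all genes, and 11 had both. Runx2 lost 4 regions, the first the start printed above (chr17:44814484-44815299, folds 6.49 and 4.94 at DAY3, 10.6 and 3.43 in MEF), and gained 4, of which chr17:44547870-44548678 reached 14.4 and 12.0 at DAY9. Tead1, a partner of the Hippo effector Yap, gained 13 and lost 1, and its region chr7:112841511-112842396 had 14.5 and 13.8 at DAY9, 13.2 and 12.3 at DAY6 and 13.5 and 13.1 in ESC. Of 29 matrix genes 16 (55.2%) had a gained region, near the share of all genes, and 12 (41.4%) a lost one. Sparc, a collagen-binding matrix protein, had a lost region at its start and 2 gained ones past its other end. The start region had folds of 3.23 and 3.40 at DAY3, 6.09 and 4.19 in MEF, 3.80 and 3.76 at DAY6 and 3.15 and 4.84 in ESC, so DAY9 was the only stage with no peak in either list. Col1a1 itself, the locus that carries the cassette, had 1 lost region 6.96 kb from its nearer end. With peak heights matched, 12 fibroblast factors had a gained and 21 a lost region, and 7 matrix genes a gained and 18 a lost one. That scaling moved all genes the same way, to 22.1% gained and 22.9% lost.

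Genes of other lineages had gained regions too, where 48.2% of all genes had one. Of 16 extraembryonic regulators 15 had a gained region, with Elf5, a trophoblast factor, gaining its start (11.0 and 11.8 at DAY9, 4.02 and 5.11 in ESC). Of 13 neural genes 12 had one, including the starts of Neurod1, Sox1, Olig2, Nkx2-2 and Myt1l. The Olig2 and Nkx2-2 starts were no longer gained at matched peak height. Keratinocyte (8 of 10), TGF-beta and BMP (17 of 22), LIF, WNT and FGF (15 of 20), muscle (6 of 8) and blood and endothelial genes (8 of 12) were above the share of all genes as well. At matched peak height, where 22.1% of all genes had a gained region, the counts were 9 of 16 extraembryonic, 5 of 10 keratinocyte, 4 of 13 neural, 8 of 20 LIF, WNT and FGF, 4 of 12 blood and endothelial, 6 of 22 TGF-beta and BMP and 2 of 8 muscle genes. The last 2 lists, at 27.3% and 25.0%, were then near the share of all genes. Of 14 genes of SSEA1 synthesis and cell surface markers 11 had a gained and 3 a lost region. These were 78.6% and 21.4%, against 48.2% and 11.7% of all genes. At matched peak height 5 had each, against 22.1% and 22.9%. Fut9, which makes the SSEA1 epitope, had 4 gained regions, the highest at 7.33 and 5.85, and Alpl, alkaline phosphatase, 3, up to 11.6 and 11.8, beside 2 lost ones. Thy1, a fibroblast surface marker that fades early in reprogramming, had 1 lost region (3.97 and 3.67 at DAY3, 7.32 and 5.66 in MEF). Of 14 AP-1 family genes 5 (35.7%) had a gained and 2 (14.3%) a lost region, against 48.2% and 11.7% of all genes. Of 12 p53 and senescence genes 6 (50%, near the share of all genes) had a gained and 0 a lost one. Of 15 ubiquitous genes 2 (13.3%) had a gained and 2 (13.3%) a lost one. Over all 16 lists 212 of 308 members (68.8%) had a gained and 60 (19.5%) a lost region. These shares describe the lists only.

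**Figure D5:**
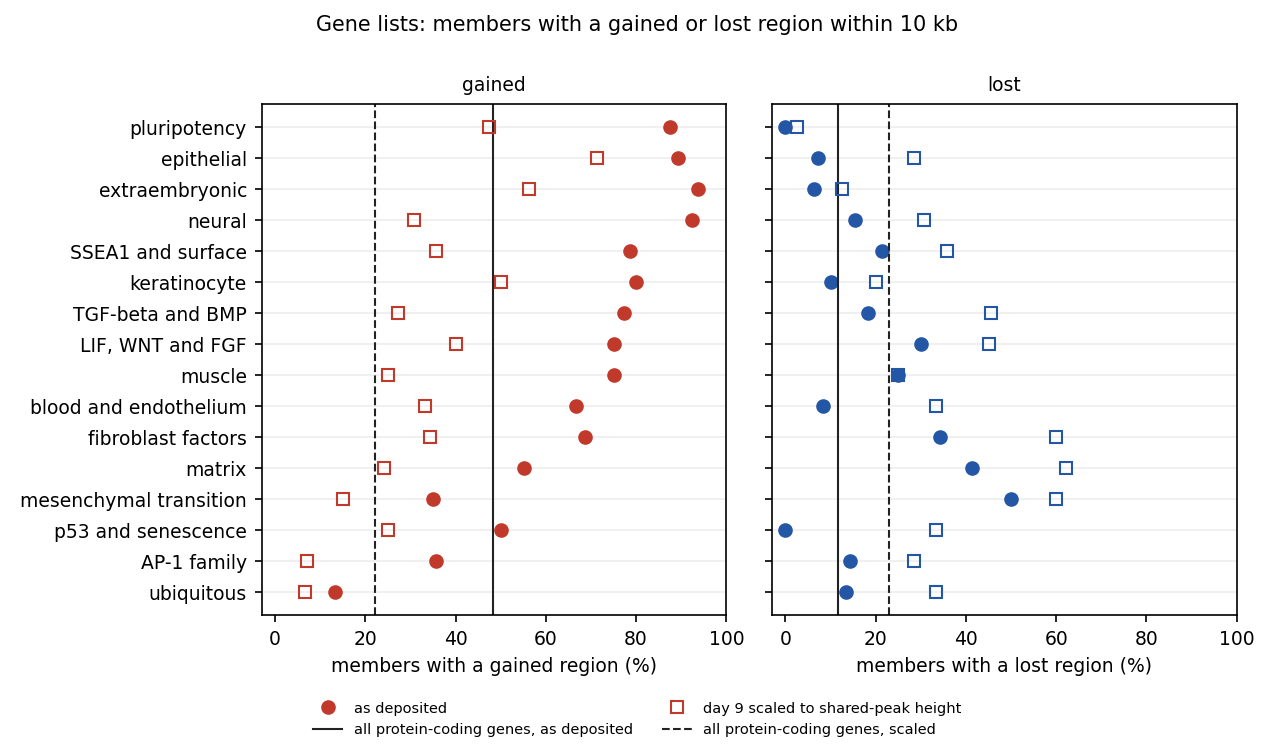
Share of members of each of 16 gene lists (rows) with a gained (left) or lost (right) region in the gene or its 10 kb flanks, with lists as deposited (filled) and with DAY9 scaled to shared-peak height (open); lines mark all protein-coding genes. The pluripotency list stands at 87.5% gained and 0 lost as deposited, and the mesenchymal-transition list at 35% gained and 50% lost.

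Few gene starts changed. Of 17491 protein-coding genes with a start in the RefSeq table, 807 (4.61%) had a peak within 1 kb in both DAY9 and neither DAY3 list, and 53 (0.303%) the reverse. A peak in all 4 lists was found at 9869 starts and none at 5784. Of the 807 gained starts 548 had a peak in both ESC lists, 397 in both DAY6 lists and 121 in both MEF lists. Of the 53 lost starts 31 had one in both MEF lists and 9 in both ESC lists. Besides Twist2, Prrx1, Runx2 and Sparc of the lists, the lost starts included the matrix genes Fmod, Emilin1 and Ltbp3, the growth factor gene Fgf2 and the Yap target Ankrd1, which were chosen after their values were seen. This became 319 gained and 267 lost starts at matched peak height. With peaks counted within 2.5 kb, 950 starts were gained and 58 lost. The starts of Prrx1 and Sparc were then no longer lost. Those of Cldn6, Crb3, Elf5 and Neurod1, named above, were then no longer gained.

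In the sequence of 21262 promoter windows of 300 bases, the words of several factors were unevenly spread over the classes. A window was classed by the peaks that overlapped it, which gave 939 gained windows, 96 lost, 10887 with a peak in all 4 lists and 8104 with none. The AP-1 word TGANTCA was in 25 of the 96 lost windows (26.0%, 95% Wilson interval 18.3 to 35.6), in 8.84% of the gained, 3.96% of the shared and 10.8% of the windows without a peak, and in 6.99% of all. AP-1 joins Fos and Jun proteins and is a leading regulator of fibroblast enhancers. At matched peak height the shares were 15.6% of 346 lost and 7.60% of 421 gained windows. The KLF word GGGNGTGG was in 27.1% of the gained, 25.0% of the lost, 23.8% of the shared and 12.3% of the windows without a peak. The ETS word CCGGAAGT, common in housekeeping promoters, was in 9.13% of the shared windows, 1.17% of the gained and 0 of the 96 lost (Wilson upper bound 3.85%). The CTCF word AGGGGGCGC was in 2.66% of the gained and 2.08% of the lost windows, and in 1.70% of all. The RUNX word was in 5 of the 96 lost windows (5.21%, Wilson interval 2.24 to 11.6) and in 1.17% of the gained. The CEBP word was in 14.6% of the lost and 8.95% of the gained windows. The TEAD word GGAATGT was in 7.29% and 3.83%, and the octamer ATGCAAAT in 3.12% and 2.13%. The SOX word AACAATGG was in 2.08% and 0.426%, and the GRHL word AACCNGTT in 2.08% and 2.24%. In the windows without a peak the shares were 2.71% (RUNX), 14.3% (CEBP), 4.74% (TEAD), 1.92% (octamer), 1.31% (SOX) and 2.23% (GRHL). At matched peak height RUNX stood at 2.60% of the lost and 1.19% of the gained windows, and CEBP at 12.4% and 10.9%. TEAD then stood at 4.34% and 4.04%, the octamer at 2.60% and 3.56%, SOX at 2.02% and 0.475% and GRHL at 2.31% and 2.38%. The ESRRB word TCAAGGTCA was in 0.213% of the gained and 0 of the lost windows, and the longer joint OCT-SOX word in 0 of both. Median GC content differed as well, at 58.7% for gained, 53.3% for lost, 62.7% for shared and 47% for the remaining windows without a peak, and its part in these shares was not tested.

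Gained and lost regions also lay near microRNA genes. Of 1005 annotated hairpins 322 (32.0%) had a gained region within 10 kb and 50 (4.98%) a lost one. The loci below were chosen after their values were seen, and their mature sequences are shown with the seed, bases 2 to 8, in capitals, because several of the gained loci chosen share seeds. They do not stand for all hairpins. Among those not described further, Mir34a had 4 gained regions, Mir29b-2 and Mir29c 2 each, and Mir30a and Mir30c-2 1 lost region each. The miR-200 family, which represses Zeb1 and Zeb2 and so guards the epithelial state, has 2 seeds.
miR-200b-3p: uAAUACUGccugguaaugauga
miR-200c-3p: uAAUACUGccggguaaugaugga
miR-429-3p: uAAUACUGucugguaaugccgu
miR-200a-3p: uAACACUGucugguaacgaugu
miR-141-3p: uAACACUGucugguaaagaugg
Its members lie in 2 clusters, and both gained. Near the hairpins of miR-200b, miR-200a and miR-429 (chr4:156053905-156055750), the region chr4:156059209-156060249 had folds of 9.91 and 10.8 at DAY9, 6.39 and 7.65 at DAY6 and 10.3 and 5.42 in ESC. Near miR-200c and miR-141, chr6:124718668-124719748 had 4.45 and 5.22 at DAY9 and a peak in 1 DAY6 and 1 ESC list. Neither had a MEF peak.

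Gained regions also lay near 2 clusters of microRNAs of pluripotent cells and near the epithelial miR-205.
miR-294-3p: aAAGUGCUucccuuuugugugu
miR-302b-3p: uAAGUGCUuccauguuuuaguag
miR-205-5p: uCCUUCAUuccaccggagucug
The first 2 share the seed AAGUGCU, come from the clusters of miR-290 to miR-295 and of miR-302 and miR-367, and are known to promote the cell cycle of stem cells. The gained region chr3:127544577-127545351 overlapped the miR-302 and miR-367 hairpins and had 6.38 and 7.29 at DAY9, 9.21 and 3.61 at DAY6 and 8.40 and 10.2 in ESC. At the miR-290 cluster, chr7:3217515-3217973 had 4.67 and 3.58. Near miR-205, 3 regions were gained, and chr1:193509930-193510625, 2.40 kb away, was also the ninth strongest gained region, with 9.83 and 9.73 at DAY9 and 7.90 and 8.14 at DAY6. Each of these 5 loci kept at least 1 gained region at matched peak height. The miR-290 locus also had 2 regions with a peak in all 4 lists. The loci of miR-200c, miR-205 and miR-302 had 1 each, and that of miR-200b had 0.

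Among the hairpins with a lost region within 10 kb were miR-21a, miR-22 and miR-214.
miR-21a-5p: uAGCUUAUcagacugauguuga
miR-22-3p: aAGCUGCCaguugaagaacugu
miR-214-3p: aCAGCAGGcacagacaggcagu
No seed is shared among these. The region chr11:86577135-86577539, 6.53 kb from miR-21a, had 3.01 and 2.54 at DAY3, 3.76 and 3.58 in MEF and 4.51 in 1 ESC list. The one near miR-199a-2 and miR-214, chr1:162224787-162225219, had 2.85 and 3.23 at DAY3, 4.71 and 5.68 in MEF and 3.49 in 1 DAY6 list. At miR-22, chr11:75462826-75463281 had 2.38 and 2.13 at DAY3, 3.35 and 2.76 in MEF, 2.38 in 1 DAY6 list and 3.13 and 2.50 in ESC. These folds were low, and each locus also had 2 to 4 regions with a peak in all 4 lists. The locus of miR-199a-2 and miR-214 had 1 gained region as well, and that of miR-23b, miR-27b and miR-24-1 had 1 gained and 1 lost.

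Gained regions also formed runs. With regions joined up to 15 kb apart, 1614 gained clusters of 3 or more regions held 20.4% of the gained set, and 45 lost clusters held 2.91% of the lost set. The lost set was the smaller one, and no set of equal size was compared. The run with most regions held 11 gained ones at chr13:21906937-21935697, a cluster of 12 tRNA genes, and all 11 were within 1 kb of a tRNA gene. Both MEF lists had a peak in 6 of them. Of 408 tRNA genes, which RNA polymerase III transcribes, 39 (9.56%) were gained and 0 (0.0%) lost, 235 had a peak in all 4 lists and 104 none. Peaks stood at 69.1% and 68.6% of the tRNA genes in MEF, 60.3% in both DAY3 lists, 71.8% and 72.8% at DAY9 and 64.7% and 69.9% in ESC, so DAY3 was the lowest stage. Of the 39 gained tRNA genes 25 had a peak in both MEF lists. At matched peak height 14 were gained and 3 lost. Many tRNA genes have identical copies, so the placement of reads among them is uncertain.

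Of the other gained runs named, 3 lay over protein-coding genes. Sgsm1 had 10 regions in 69.2 kb. A run of 9 in 40.8 kb spanned Pirt, a channel regulator of sensory neurons, where MEF and DAY3 lists held 0 peaks, DAY6 lists 5 and 4, DAY9 lists 9 and 9 and ESC lists 4 and 6. The run over Mast1, Rtbdn and Rnaseh2a had 9 regions. Another run of 9 overlapped no protein-coding gene, and the nearest, Hrh1, was 23.6 kb away. The 5 lost runs with most regions had 4 each, at Pdlim4, Lpp, Arhgef7, Osbpl3 and Aldh3a1. At Pdlim4, an actin-associated LIM protein, 4 regions in 8.94 kb held 3 and 4 peaks in MEF, 4 and 4 at DAY3, 2 and 1 at DAY6, and 0 and 1 at DAY9. At Arhgef7, a Rac exchange factor of focal adhesions, the counts were 4 and 3, 4 and 5, 2 and 0, and 0 and 0 in the same order. The DAY9 lists held 1 and 0 peaks in the Lpp run and 0 and 2 in the Osbpl3 run. The Aldh3a1 run still held 4 and 5 at DAY9, after 7 and 7 at DAY3. Across chromosomes the shares varied little: 23.6% to 29.9% of merged regions were gained on the 19 autosomes and 28.8% on X (95% Wilson interval 27.1 to 30.6), and 3.95% to 5.68% and 3.93% were lost.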

How the data were processed

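Per the submitters' processing notes, the deposited lists come from Bowtie2 2.3.2 and MACS2 2.1.1 on mm10, with deepTools 2.3.6 also named. Duplicate removal, transposase offset and filters are not given in the sources used here. The authors deposited 1 list per library with the score, the fold (a linear ratio of pileup to local background), the −log10 p-value and the −log10 q-value of each peak. These values are the authors' own and served to describe, rank and filter peaks. Where −log10 p was at most 300, a whole pileup matched fold and −log10 p within 0.01 in 99.992% to 99.993% of peaks of each of the 4 lists, which gave heights and background pileups. Fragment totals were not used.

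Lists were merged and compared with Python 3.11.15, numpy 2.4.6, pandas 2.3.3 and scipy 1.17.1. The code was tested on simulated lists. Gene bodies and starts are from RefSeq (GRCm38.p6, the same coordinates as mm10). Starts were in the table for 79.9% of protein-coding genes and for none on chromosome 18, whose regions have no distance to a start. Words were searched in promoters only, because no genome sequence was used. A list of equal length kept the strongest 45497 peaks. Named are the 10 regions of each set whose worse rank of −log10 p in their 2 lists is best, the 10 genes with most regions, the 5 runs with most regions and list members with a changed start or needed for a count. Some of these genes are not reported here. The regions and lists were chosen with earlier results of these data known. No p-value was computed. Stricter thresholds, overlaps, list lengths, depth scalings and left-out libraries were tried.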

Additional observations from a re-analysis of the deposited data

How the results depend on the processing

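With lists of equal length, 11190 regions were gained and 8775 lost (gained share 56.0%). With DAY9 scaled to the DAY3 background the share was 77.6%, and with DAY9 scaled to the DAY3 height of shared peaks, an alternative that assumes these are equally high on both days, 8841 were gained and 10090 lost (46.7%), so the excess reversed. The strongest 50% of each list gave 14925 and 2363 (86.3%), a −log10 p of at least 10 gave 2722 lost (88.6%), and 50% coverage gave 84.8%. Near a start stood 7.30% of gained and 5.54% of lost regions within 2.5 kb, 7.13% and 5.00% with all annotated genes, 7.88% and 4.41% with either gene end, 5.21% and 4.46% at equal length, and 5.26% and 5.30% at shared height. Inside a gene were 60.3% and 63.6% with all genes, 49.6% and 55.9% at equal length, and 49.4% and 56.2% at shared height. Median distances were 22.7 and 29.8 kb with all genes, and for lost regions 51.4 kb at equal length and 48.3 kb at shared height. With a peak in at least 1 library, MEF shares were 17.8% gained and 55.1% lost, DAY6 63.9% and 50.4%, and ESC 60.5% and 12.2%. At equal length, lost MEF was 30.4%, gained DAY6 36.5% and gained ESC 29.7%. With the background scaling, gained DAY6 was 39.9%, gained ESC 43.2% and lost ESC 5.63%. At shared height, gained DAY6 was 59.6%, lost DAY6 38.8%, gained ESC 49.6% and lost ESC 14.6%. Gene starts gained and lost were 388 and 189 at equal length and 319 and 267 at shared height. List members with a gained and a lost region were 133 and 100 at equal length, against 26.9% and 19.9% of all genes. At shared height they were 109 and 111, against 22.1% and 22.9%. Joining within 30 kb gave 2795 gained and 94 lost clusters.

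Leaving out 1 library at a time gave 32127 to 38862 gained and 5796 to 8928 lost regions, a gained share of 78.3% to 86.9%, 4.34% to 5.16% of gained and 2.97% to 3.33% of lost regions near a start, 50.6% to 51.0% and 53.2% to 54.6% inside a gene, median distances of 39.4 to 40.4 and 54.2 to 56.7 kb, and 969 to 1069 gained and 66 to 90 lost starts. For the other stages the ranges were 7.84% to 15.7% (gained, MEF), 45.2% to 50.6% (lost, MEF), 46.0% to 50.9% (gained, DAY6), 29.4% to 39.6% (lost, DAY6), 50.0% to 50.1% (gained, ESC) and 7.75% to 8.40% (lost, ESC). Scaling and shortening take peaks from DAY9 by construction, and leaving out a library loosens the rule by construction. The cause of the other shifts was not tested.

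No paired analysis was possible because the results come from no test. Windows around summits were not run, since the lists give no summit position. Depth limits the lists: a site without a listed peak was below the authors' threshold, which is not the same as closed.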
